A study of Mus musculus with 6 samples.

Results

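Expression of 30 immediate early genes was examined in the adrenal glands of adult female C57Bl/6J mice. The genes were a list of 30 symbols, without the Nr4a receptors, drawn up with earlier results of these data known, and the brightest probe set with a single gene symbol stood for each of them. All 30 were found among the 25150 probe sets of the table, each with 1 probe set, and all passed the filter on low values that left 16034 probe sets of 14727 genes for testing. Cyr61 was found under its present symbol, Ccn1. The control group had 3 arrays. The CGP group had 3 arrays of adrenals from the daughters of dams dosed orally with CGP 39551, an antagonist of the NMDA receptor, at 5 mg/kg from pregnancy to the end of weaning. All mice were 21 weeks old when the glands were frozen, so that the exposure lay in early life and the measurement in adulthood. RNA of 18 mice was pooled in each group. The labels do not say if the 3 arrays of each group were hybridised with a single pool or with separate ones, so p-values measure only the spread between arrays, which may be technical.

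Immediate early genes are transcribed within minutes of a stimulus from pre-existing transcription factors, without new protein synthesis, and their mRNAs are short-lived. In the adrenal cortex, ACTH acting through cAMP and protein kinase A induces many of them, and in the medulla nerve input acts through calcium and the ERK kinases. Their products are mostly transcription factors of the AP-1, EGR and KLF families, together with proteins that stop the signal again, such as phosphatases, a CREB-restraining kinase and an mRNA-decay factor.

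The promoters of 3 of the 5 members that were called lower are shown, with that of Fos, the prototype of the class. Stimulus-driven transcription of these genes depends in part on short elements near the start site. The 250 bases before the RefSeq gene start (build GRCm38.p6) are given 5′ to 3′ on the strand of the gene. Capitals mark a cAMP response element core (TGACG), an EGR site (GCGTGGGCG or GCGGGGGCG) or a TATA box (TATAAA).
Fosb, chr7:19310046-19310295, minus strand: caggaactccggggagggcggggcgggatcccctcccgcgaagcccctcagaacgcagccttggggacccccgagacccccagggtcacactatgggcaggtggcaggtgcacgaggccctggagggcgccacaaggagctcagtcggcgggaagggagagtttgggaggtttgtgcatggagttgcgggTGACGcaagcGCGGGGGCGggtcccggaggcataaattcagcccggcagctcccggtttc
Junb, chr8:84978749-84978998, minus strand: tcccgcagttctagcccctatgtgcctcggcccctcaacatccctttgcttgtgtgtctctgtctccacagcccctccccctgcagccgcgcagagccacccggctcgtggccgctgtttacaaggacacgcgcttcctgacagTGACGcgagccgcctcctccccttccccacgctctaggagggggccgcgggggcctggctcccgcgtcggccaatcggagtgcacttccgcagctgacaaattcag
Gadd45b, chr10:80929841-80930090, plus strand: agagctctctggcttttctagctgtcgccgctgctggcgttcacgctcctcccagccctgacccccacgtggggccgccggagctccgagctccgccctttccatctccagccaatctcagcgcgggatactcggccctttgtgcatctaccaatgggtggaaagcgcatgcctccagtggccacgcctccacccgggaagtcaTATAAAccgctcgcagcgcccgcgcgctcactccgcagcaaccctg
Fos, chr12:85473640-85473889, plus strand: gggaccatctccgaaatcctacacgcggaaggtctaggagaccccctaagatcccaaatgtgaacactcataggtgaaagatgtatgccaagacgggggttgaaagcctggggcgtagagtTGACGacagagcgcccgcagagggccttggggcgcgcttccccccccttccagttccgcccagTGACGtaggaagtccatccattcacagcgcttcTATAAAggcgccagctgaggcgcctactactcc

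Of the 30 members, 23 had such windows here, and Fosl1, Egr1, Egr3, Ier2, Myc, Sik1 and Arc had none. The cAMP response element core was present in 12 of the 23 genes (52.2%) and in 19.8% of the 27025 genes with a window. The full element (TGACGTCA, which contains the core on both strands) was found in Btg2, Dusp1 and Maff, 13% of the 23 against 1.77% of all. An EGR site was present in 6 (26.1%, against 3.47%), a CArG box, the element bound by serum response factor, in 3 (13%, against 1.62%), and a TATA box in 4 (17.4%, against 8.94%). An AP-1 site (TGAGTCA or TGACTCA) was found in 0 of the 23 and in 5.16% of all genes. Both strands were searched except for the TATA box, and a gene with several start sites counted once. The letters are a description of these windows only. Elements outside the 250 bases were not searched, so a gene without a match here may still have one elsewhere. Among called members, Fosb holds a CRE core and an EGR site, Junb a CRE core and Gadd45b a TATA box. Fos holds 2 cores and a TATA box and was not called. The core was also found in Atf3, Btg2, Cyr61, Dusp1, Dusp5, Egr2, Klf2, Klf4 and Maff, none of which was called. EGR sites and TATA boxes were likewise found in members not called.

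Medians of the 6 arrays were 7.91 to 7.96 (log2), a likeness that quantile normalisation of the deposited values brings about. Background, taken as the upper quartile of signals from 128 probe sets for olfactory and related receptors, was 6.41 to 6.65. Every member lay above it on every array. Over all tested probe sets control 1 differed less from CGP 2 (SD of the difference 0.160) than from control 2 (0.177). Among the members, the SD of the difference between 2 arrays was 0.0741 to 0.108 within controls, 0.0960 to 0.111 within CGP and 0.0951 to 0.160 between the groups. Adrenal identity was clear in both groups, since Star, Cyp11a1 and Cyp11b1 of the cortex and Th, Dbh and Chga of the medulla had values of 12.39 or more on every array. In these bulk samples, fewer cells of a type cannot be told apart from less RNA per cell. Markers of other tissues moved with the groups. Of 31 hepatocyte genes tested, 28 were lower and 0 higher in CGP, with array medians of 9.99 to 10.10 in controls and 8.92 to 9.01 in CGP, and of 17 adipocyte genes, 15 were higher and 0 lower (10.86 to 10.97, and 11.41 to 11.55). Their part in the results for the immediate early genes was not tested.

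Of the 30 genes, 5, Junb, Fosb, Sik1, Egr1 and Gadd45b, were lower in the CGP group, by 1.15- to 1.22-fold, and 25 did not pass the test (limma, adjusted p under 0.05). None was higher. The 5 lower calls were 16.7% of the members, where 1.59% of all 16034 probe sets tested were called lower and 1.94% were called higher. At an unadjusted p under 0.05, 8 of the 30 members were lower and 0 higher, against 8.52% and 10.8% of all probe sets. All 3 CGP arrays lay below all 3 controls in 10 members (33.3%, against 12.6% of all probe sets), and above them in 0 (against 13.7%). By group means 23 of 30 were lower, with a median log2 difference (CGP minus control) of -0.09, beside -0.01 for all tested probe sets. The adjusted p values were close to the threshold (0.0214 to 0.0494). The count of 5 became 1 without control 2 (Fosb) or CGP 1 (Junb), 0 without control 3, CGP 2 or CGP 3, and 3 (Egr1, Fosb, Sik1) when each array was centred on its median, while it stayed at 5 without control 1. It was also 0 when the adjustment ran over all 23496 probe sets past the filter, named or not.

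**Figure D1:**
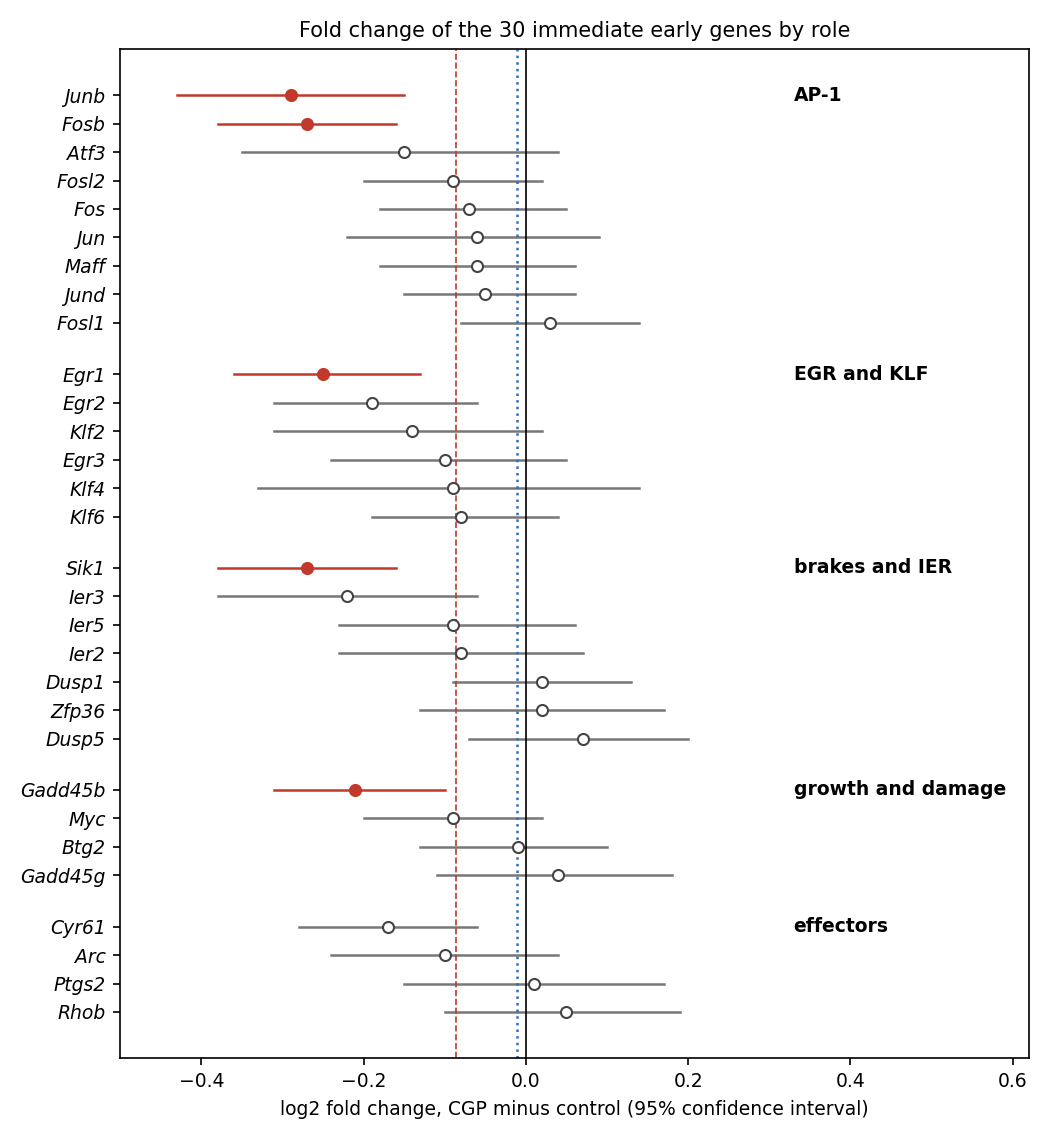
The difference CGP minus control in log2 (horizontal axis, bars are 95% confidence intervals) of the 30 genes (vertical axis), grouped by role, filled in red where the test was passed and open elsewhere. The dashed red line is the median of the members (-0.09) and the dotted blue line that of all tested probe sets (-0.01). The 5 red points lie between -0.29 and -0.21, and 23 of the 30 points lie left of 0.

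AP-1 is a dimer of a FOS with a JUN protein, or of JUN proteins alone, to which ATF3 and the small MAF proteins are related. Of its 9 members 2 fell, Junb and Fosb, and 7 did not pass the test. Junb, a JUN protein with weaker activating power than c-Jun, had values of 9.42, 9.54 and 9.43 on the controls and 9.27, 9.11 and 9.13 on the CGP arrays. The lowest control exceeded the highest CGP array by more than the range of the controls. Junb fell by 0.29 (SE 0.06, 1.22-fold, adjusted p = 0.0439), from 9.46 ± 0.06 to 9.17 ± 0.08 (mean log2 ± SD, n = 3 arrays each). Fosb encodes a protein whose stable truncated form accumulates on repeated stimulation. Values of Fosb were 9.57, 9.45 and 9.54 on the controls and 9.24, 9.25 and 9.25 on the CGP arrays. The CGP arrays were almost equal, and all lay below the controls. Fosb fell by 0.27 (SE 0.05, 1.21-fold, adjusted p = 0.0244).

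The remaining AP-1 members had smaller differences. Fos, the classical partner of JUN, measured 8.64, 8.68 and 8.65 on the controls and 8.64, 8.62 and 8.51 on the CGP arrays. The groups were separated only beyond the second decimal, and the difference of -0.07 (95% confidence interval -0.18 to 0.05) did not pass the test. Fosl2, a FOS-related protein of slower response, read 11.75, 11.73 and 11.73 against 11.70, 11.58 and 11.66, also without overlap (-0.09, -0.20 to 0.02, adjusted p = 0.326). In the other 5 the groups overlapped. Atf3, a stress-responsive partner of JUN, differed by -0.15 (-0.35 to 0.04), with 8.18, 8.32 and 7.99 on the CGP arrays, a wider spread than in the controls (SD 0.17 and 0.07). Jun differed by -0.06 (-0.22 to 0.09), Jund, the member least dependent on stimulation, by -0.05 (-0.15 to 0.06), and Maff, a small MAF protein, by -0.06 (-0.18 to 0.06). Fosl1 was the only AP-1 member with a higher mean in CGP (8.52 and 8.55). Of these 5 genes, Atf3 alone had an interval that reached the decreases of Junb and Fosb.

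The EGR proteins are zinc finger transcription factors that respond to ERK signalling, and the KLF proteins form a related zinc finger family. All 6 members had lower means in CGP, and 1 of them, Egr1, passed the test. Egr1 had values of 11.46, 11.55 and 11.56 on the controls and 11.24, 11.27 and 11.31 on the CGP arrays. The gap between the groups was wider than the range within either of them. Egr1 fell by 0.25 (SE 0.05, 1.19-fold, adjusted p = 0.0375), from 11.52 ± 0.05 to 11.28 ± 0.04. Egr2, known for its part in Schwann cell myelination, read 8.07, 8.10 and 8.18 against 7.99, 7.94 and 7.86. These groups did not overlap either, but its difference of -0.19 (-0.31 to -0.06) had an adjusted p of 0.125 (0.0323 with array weights, the only one of the 14 alternatives under which it passed, and up to 0.337). Egr3 differed by -0.10 (-0.24 to 0.05), with overlap. Among the KLF genes, Klf2, which endothelial cells induce under shear flow, differed by -0.14 (-0.31 to 0.02), Klf6 by -0.08 (-0.19 to 0.04), and Klf4, a regulator of epithelial and vascular cells, by -0.09 (-0.33 to 0.14). The groups overlapped in all of the KLF genes, and Klf4 had its highest value on CGP 1 (8.91) and its lowest on CGP 3 (8.56), so that the CGP arrays alone spanned the whole range.

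**Figure D2:**
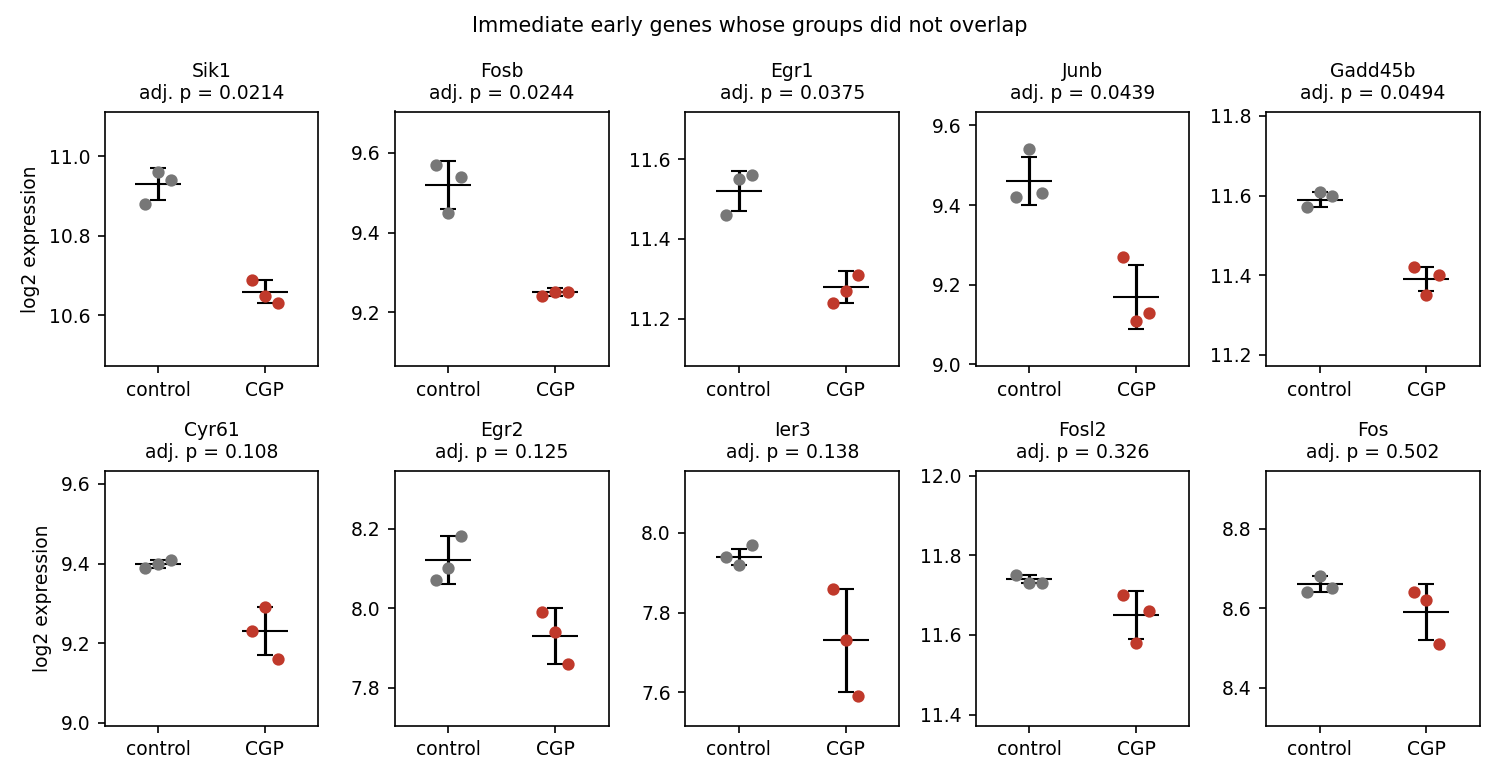
Log2 expression (vertical axis, the same span in each panel) of the 10 immediate early genes whose groups did not overlap, on each control (grey) and CGP (red) array, black marks giving group mean and SD. Panels are in order of the adjusted p. In the upper row, with adjusted p of 0.0214 to 0.0494, the CGP arrays lie clear of the controls. For Junb, in that row, the gap is about equal to the range of the CGP arrays. In each panel of the lower row the gap is narrower than the range of the CGP arrays.

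Of the genes that limit the signal, the kinase Sik1 fell and the phosphatases did not pass the test. Sik1, a salt-inducible kinase that ACTH induces in cortical cells and that keeps the CREB coactivators out of the nucleus, had values of 10.88, 10.96 and 10.94 on the controls and 10.69, 10.65 and 10.63 on the CGP arrays. It fell by 0.27 (SE 0.05, 1.21-fold, adjusted p = 0.0214), the smallest adjusted p of the 30. Dusp1, the nuclear phosphatase of MAP kinases, read 11.43, 11.48 and 11.42 against 11.52, 11.42 and 11.44. The groups overlapped, and the interval of its difference (0.02, -0.09 to 0.13) does not reach the decreases of the 5 called genes. Dusp5, a phosphatase of ERK, differed by 0.07 (-0.07 to 0.20), and Zfp36, the protein tristetraprolin that speeds the decay of mRNAs with AU-rich elements, by 0.02 (-0.13 to 0.17).

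Ier2, Ier3 and Ier5 carry the name immediate early response. Ier3, a regulator of survival under stress, read 7.94, 7.92 and 7.97 on the controls and 7.86, 7.73 and 7.59 on the CGP arrays. All CGP values were lower, but their SD of 0.13 was far above that of the controls (0.02), and the difference of -0.22 (-0.38 to -0.06) did not pass (adjusted p = 0.138). It passed with array weights alone (adjusted p = 0.0449, and 0.0449 to 0.33 over the 14 alternatives). Ier2 (-0.08, -0.23 to 0.07) and Ier5 (-0.09, -0.23 to 0.06) overlapped between the groups.

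Among 4 genes of growth arrest and growth, Gadd45b fell, and the other 3 did not pass. Gadd45b, a stress-induced protein that binds kinases of the p38 and JNK pathways, had values of 11.57, 11.61 and 11.60 on the controls and 11.42, 11.35 and 11.40 on the CGP arrays. It fell by 0.21 (SE 0.04, 1.15-fold, adjusted p = 0.0494), the highest adjusted p of the 5 calls. Its relative Gadd45g had means of 8.88 and 8.92 and differed by 0.04 (-0.11 to 0.18). The antiproliferative Btg2 differed by -0.01 (-0.13 to 0.10) and Myc, a driver of growth and proliferation, by -0.09 (-0.20 to 0.02), both with overlap.

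The last 4 members are effectors rather than regulators of transcription, and 0 passed the test by limma, with 1 at an unadjusted p under 0.05. That gene was Cyr61, a secreted matricellular protein that binds integrins, with 9.39, 9.40 and 9.41 on the controls and 9.23, 9.29 and 9.16 on the CGP arrays. The controls were almost equal and all above the CGP arrays, with a difference of -0.17 (-0.28 to -0.06, adjusted p = 0.108). It passed under a variance trend with a robust prior (adjusted p = 0.0422, and 0.0422 to 0.304 over the 14 alternatives). Arc, a synaptic protein of neurons, differed by -0.10 (-0.24 to 0.04), Rhob, a small GTPase of endosomes and the actin cytoskeleton, by 0.05 (-0.10 to 0.19), and Ptgs2, the inducible cyclooxygenase, by 0.01 (-0.15 to 0.17). In these 3 the groups overlapped.

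Most members had their highest value on a control array and their lowest on a CGP array. The median deviation of the members from their own mean over the 6 arrays was 0.06, 0.04 and 0.07 on the controls. On the CGP arrays it was -0.01, -0.04 and -0.09 (log2). Over all tested probe sets the same median stayed between -0.01 and 0.02, a level that quantile normalisation largely sets. The highest of the 6 values was on a control array in 25 members, 11 of them on control 3. The lowest was on a CGP array in 22, 13 of them on CGP 3, and on control 2 in the other 8. The shares of all tested probe sets with such positions were not counted, but 54.4% had a lower mean in CGP. Of the CGP arrays, CGP 1 lay nearest to the controls and CGP 3 farthest from them, and control 2 was the only control array to hold the lowest value of any member.

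**Figure D3:**
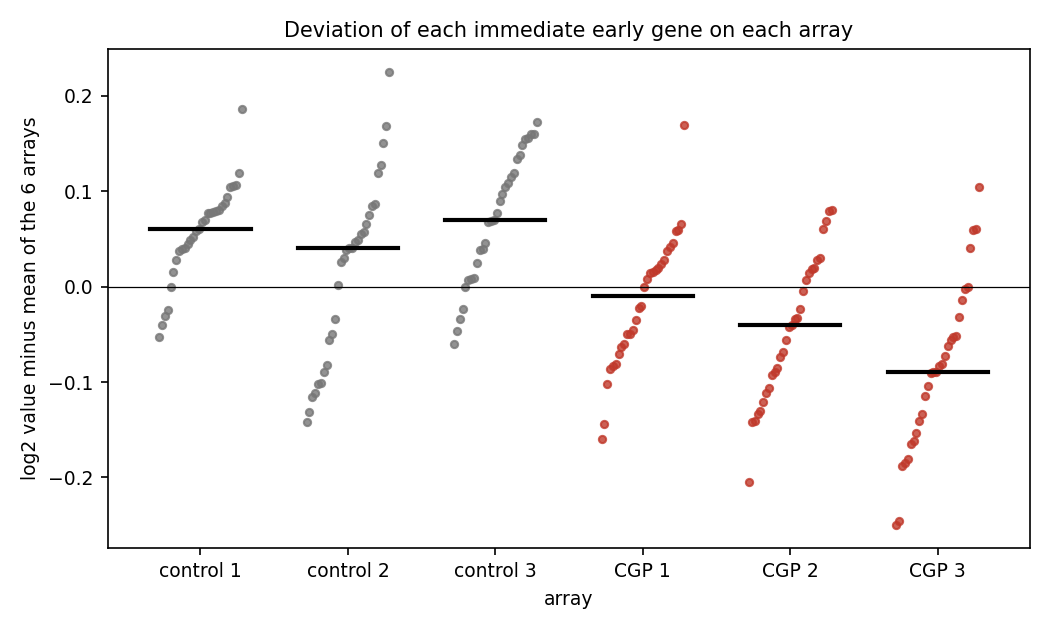
Log2 value minus the gene's own mean over the 6 arrays (vertical axis) for each of the 30 genes on each array (horizontal axis), sorted within the array, with the array's median as a black bar. The bars lie at 0.04 to 0.07 on the controls (grey) and at -0.09 to -0.01 on the CGP arrays (red), and the points of both groups overlap widely.

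Genes related to the members were compared in the same way. Of the orphan receptors of the Nr4a family, which share the induction by ACTH, Nr4a2 was called lower by limma (-0.46, adjusted p = 0.001). Nr4a1 (-0.06) and Nr4a3 (0.10) did not pass the test. The groups did not overlap in either, but CGP lay wholly below the controls in 12.6% of all probe sets and wholly above in 13.7%. Of 55 further rapidly induced genes tested, limma called 0. At an unadjusted p under 0.05, 10 of the 55 were lower and 2 higher, against 8.52% and 10.8% of all probe sets. Their median difference was -0.04, with 35 below 0 and 20 above, where 54.4% of all probe sets were below 0. Closest to the threshold were Plk3, a stress-responsive kinase (-0.27, adjusted p = 0.0561), and Dusp4, a nuclear MAP kinase phosphatase (0.21, adjusted p = 0.0612), both picked out once the values were known. Plk3 passed under 5 of the 14 alternatives. Whether this list differs from the members was not tested.

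Upstream of these genes, the kinases and transcription factors that carry ERK, SRF and CREB signals gave 1 call. Of 33 listed genes 25 were tested, 1 was higher, 0 were lower and 24 did not pass, with a median of 0.03. The gene that rose was Rps6ka3, the kinase RSK2, which phosphorylates CREB, SRF and FOS. It had 8.11, 7.68 and 7.86 on the controls and 8.27, 8.51 and 8.44 on the CGP arrays, and rose by 0.53 (SE 0.11, 1.44-fold, adjusted p = 0.0449). The CGP arrays were all above the controls, among which control 2 was lowest, and the call was lost without control 2, control 3 or any 1 of the CGP arrays (adjusted p of 0.0679 to 0.174). At an unadjusted p under 0.05, 6 of the 25 were higher and 0 lower, against 10.8% and 8.52% of all probe sets. In 9 of the 25, all CGP arrays lay above all controls, against 13.7% of all probe sets. Srf itself differed by -0.03 (-0.16 to 0.10), and Creb1 by 0.12 (0.01 to 0.24, adjusted p = 0.238).

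**Figure D4:**
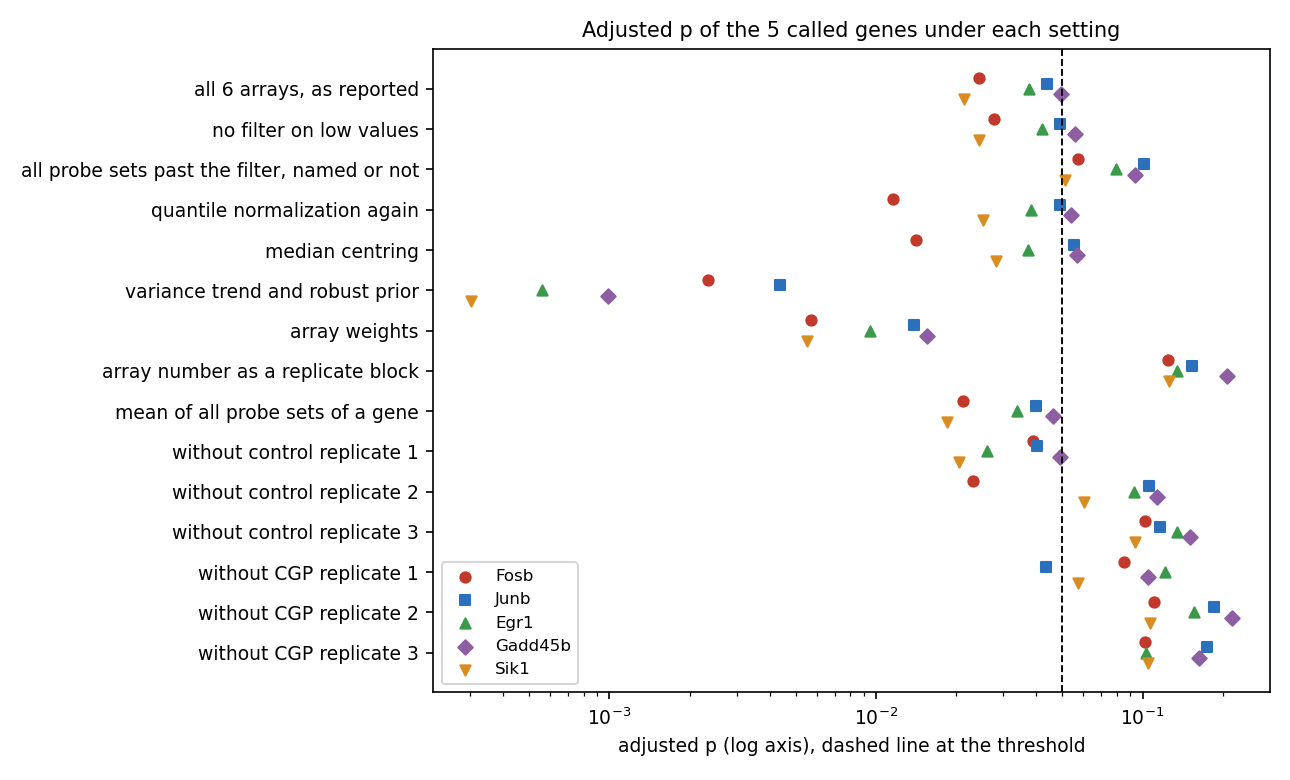
Adjusted p (horizontal log axis) of the 5 called genes under the fit as reported and 14 alternatives (vertical axis), with the threshold of 0.05 as a dashed line. All 5 lie left of the line with a variance trend, with array weights, with the mean of all probe sets of a gene and without control 1. Averaging probe sets leaves the values of these 5 genes unchanged, since each has 1 probe set. All 5 lie right of the line under 5 alternatives, among them the fits without control 3, CGP 2 or CGP 3.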

How the data were processed

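Adrenal RNA was measured on 6 Affymetrix whole-transcript arrays, 3 per group, with groups and array numbers taken from the sample titles. The authors deposited log2 values of 25150 probe sets in 1 table. Their processing notes name RMA (background correction, quantile normalisation and summary of probes) and Partek, while versions and the genome build were not given in the sources used here. Precision is limited by the number of arrays. Values ran from 3.75 to 14.6 and were not normalised again.

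Names came from the platform annotation (16769 with 1 gene symbol, 1031 with several, 7350 with none), and older symbols through RefSeq (GRCm38.p6). The test took probe sets with 1 symbol that reached 6 (log2) on 3 or more arrays, and used limma 3.58.1 under R 4.3.3, with lmFit followed by eBayes, two-sided, without covariates. P-values were adjusted by Benjamini and Hochberg over all 16034 tested. SE is the moderated standard error, and confidence intervals are at 95%, unadjusted. Every member is reported, with all 6 values where the test was passed, the groups did not overlap or the signal was among the 3 highest. Related genes that passed are named, with some that did not pass, among them Plk3, Dusp4, Srf and Creb1. The members and lists were chosen with earlier results of these data known. The alternatives were no filter, unnamed probe sets added, a further quantile normalisation, centring on medians, a variance trend, array weights, the array number as a block, probe sets averaged by gene, and each array left out. Plots were drawn with matplotlib 3.10.9.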

Additional observations from a re-analysis of the deposited data

How the results depend on the processing

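The count of 5 members called lower became 0 with all probe sets past the filter tested, 3 with median centring, and 0 with the array number as a replicate block, and it ranged from 0 to 5 over the fits that left out 1 array. It was 4 to 7 under the other alternatives, and 0 members were called higher under any of the 14. The median log2 difference of -0.086 became -0.109 with array weights and ranged from -0.097 to -0.061 over the fits without 1 array. By direction, 22 members were lower and 2 (Dusp5 and Rhob) higher under all 14 alternatives, and 6 changed direction under at least 1. The number of all probe sets called ran from 224 to 1665. Same-numbered arrays did not deviate together (correlations of -0.357, -0.169 and -0.118), and no array correlated best with its own number, so the numbers were not taken as pairs. Changes of direction were seen in small differences: Ptgs2 became -0.002 with a further quantile normalisation and -0.024 with array weights, and over the fits without 1 array the ranges were Fosl1 -0.005 to 0.052, Dusp1 -0.013 to 0.036, Zfp36 -0.03 to 0.067, Btg2 -0.038 to 0.02, Gadd45g -0.004 to 0.088, Ptgs2 -0.059 to 0.047, Srf -0.063 to 0.016 and Slc4a1 -0.084 to 0.047. The cause was not tested. As a single gene, Rps6ka3 lost its call in 7 of 14 alternatives and Alas2 in 1 (replicate block, adjusted p = 0.0587, the highest of 0.00138 to 0.0587), while Nr4a2 was called in all 14.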

Other observations

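Markers of the other cell types of the gland showed no call in most lists. By limma, 0 of 9 genes of the adrenal cortex, 0 of 9 of the medulla, 0 of 10 of endothelial cells, 0 of 9 of leukocytes and 0 of 9 of fibroblasts and capsule passed the test, with 1, 2, 1, 2 and 1 at an unadjusted p under 0.05, where 8.52% of all probe sets were lower and 10.8% higher. Their median differences lay between -0.06 (leukocytes) and 0.06 (fibroblasts and capsule). Nearest to the threshold was Tek, an endothelial receptor (0.24, adjusted p = 0.0666), picked out once its value was known, and passed under 4 of the 14 alternatives. Of 2 erythroid genes tested, Alas2, the first enzyme of haem synthesis in red cell precursors, rose by 0.33 (SE 0.04, adjusted p = 0.00477), with 8.02 to 8.05 on the controls and 8.35 to 8.37 on the CGP arrays, and the anion exchanger Slc4a1 differed by -0.03.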
